A study of Mus musculus with 2 samples.

Results

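Transcripts of 10 genes of mitochondrial fusion and fission were compared between brown adipose tissue of wild-type and Ucp1-knockout (Ucp1-KO) mice. The members were the genes whose symbol in both deposited tables was Mfn1, Mfn2, Opa1, Oma1, Yme1l1, Dnm1l, Fis1, Mff, Mief1 or Mief2, which is a rule that used no measured value. All 10 were found among the 27179 genes listed, and all 10 were among the 15212 genes that were examined because their mean normalised count reached 10.

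Mitochondria form a network that is remodelled by fusion and division. The mitofusins MFN1 and MFN2 are GTPases that tether and fuse outer membranes, and OPA1 is the GTPase that fuses inner membranes and shapes cristae. The proteases OMA1 and YME1L1 cleave OPA1 from long, fusion-competent forms into short forms. Division is carried out by the GTPase DRP1, encoded by Dnm1l, which is drawn from the cytosol to the outer membrane by MFF, FIS1 and the adaptors MiD51, encoded by Mief1, and MiD49, encoded by Mief2. In brown adipocytes, noradrenergic activation of heat production is known to be accompanied by mitochondrial division. Most of this control acts on the proteins, through cleavage, phosphorylation and recruitment, so transcript levels give only the supply of mRNA.

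RNA was taken from interscapular brown adipose tissue (iBAT), the thermogenic fat depot between the shoulder blades, of untreated 20-day-old C57BL/6N mice (Bl6N in the labels). There was 1 wild-type library and 1 Ucp1-KO library, each made from tissue pooled from 3 animals, and the series describes the animals as males. The libraries were strand-specific and enriched for poly-A RNA. Neither genotype was replicated, so no p-value or standard deviation is given and each difference is one between these 2 libraries.

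The libraries held 52950913 counts (wild-type) and 53216727 counts (Ucp1-KO). Ucp1, which encodes the uncoupling protein of brown fat mitochondria, had 366473 and 37853 counts, respectively (log2 ratio -2.98). The wild-type library went against the label of male animals, since Ddx3y, Uty, Kdm5d and Eif2s3y, all on the Y chromosome, had 0 counts there against 3446, 798, 570 and 491 in the other library. Xist, which silences an X chromosome in females, had 32380 and 16478 counts, so the Ucp1-KO library held both Y-linked transcripts and Xist, and neither library could be left out with 1 per genotype. Genotype, sex and the makeup of the pools therefore cannot be told apart in any value below. Of the brown adipocyte markers, 9 of 10 were higher in the Ucp1-KO library, the exception being Ucp1, though Fabp4 and Pparg were lower when libraries were scaled to equal totals. All 12 skeletal muscle markers were at least 2-fold lower, their summed share falling from 0.559% to 0.0643% of counts, and no defining marker of the cell types checked was at 0.

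Transcripts of the mitofusins were higher in the Ucp1-KO library and those of 2 receptors of the division machinery were lower, under every scaling tried. Mfn1 and Mfn2 stood at 136.9% and 129.8% of their wild-type level, Fis1 and Mief2 at 67.4% and 63.7%, and Dnm1l at 100.1%. Here a level is a count divided by the library's size factor (the normalised count), and a log2 ratio is that of Ucp1-KO over wild-type on normalised counts with a pseudocount of 0.5. The 95% interval given with a ratio covers counting error on read pairs only. Of the 10 members, 5 had an interval above 0 (Mfn1, Mfn2, Opa1, Oma1 and Yme1l1), 3 had an interval below 0 (Fis1, Mff and Mief2), and Dnm1l and Mief1 had intervals that held 0. Among all genes examined, 31.5% had an interval above 0 and 30.5% an interval below 0. Among the 8557 genes whose mean normalised count reached 500, which are counted more precisely, these shares were 40.3% and 33.2%.

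None of the members differed by 2-fold, a size reached by 7.42% of the genes examined in the higher and 9.55% in the lower direction. At 1.5-fold, 1 member was lower (Mief2) against 17.9% of the genes, and 0 members were higher against 15.4%. The median size of the log2 ratio was 0.30 over the members, 0.37 over all genes examined and 0.27 over the well-counted genes, so the members were not set apart by the size of their differences. Their median log2 ratio was 0.05 beside -0.00 over all genes and 0.01 over 85 nuclear-encoded respiratory chain genes.

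**Figure D1:**
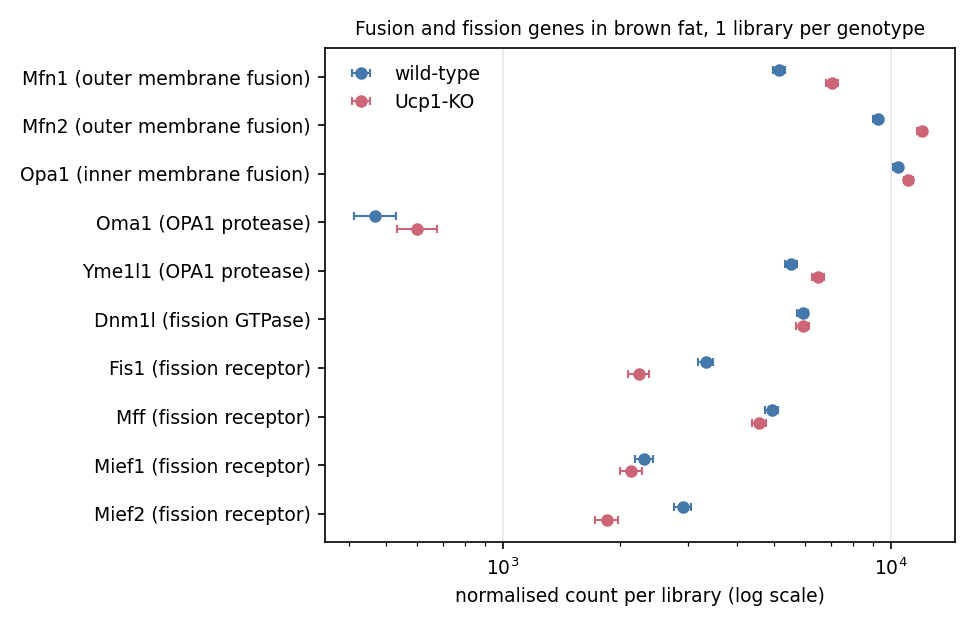
Normalised counts of the 10 members on a logarithmic axis, with 1 point per library and the 95% Poisson interval on read pairs as bars. The intervals of the 2 libraries lie apart for Mfn1, Mfn2, Opa1, Yme1l1 and, by a narrow gap, Oma1 (Ucp1-KO to the right) and for Fis1 and Mief2 (Ucp1-KO to the left), while the points of Dnm1l coincide. With total-count scaling Opa1 and Yme1l1 would be higher in the wild-type library.

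The 2 mitofusin genes, which act together at the outer membrane, had the highest log2 ratios among the members, beside Oma1 from which neither could be told apart. Mfn1 (Entrez 67414) had 5710 counts in wild-type iBAT and 6350 in Ucp1-KO iBAT, or 5147 and 7045 after scaling. Its log2 ratio was 0.45 (interval 0.38 to 0.53), and 79.7% of the genes examined had a lower one. Mfn2 (Entrez 170731), whose product also tethers mitochondria to the endoplasmic reticulum, had 10258 and 10818 counts, or 9246 and 12002 after scaling. Its log2 ratio was 0.38 (interval 0.32 to 0.43). The count ratio of Mfn1 to Mfn2 was 0.557 in wild-type iBAT and 0.587 in Ucp1-KO iBAT, and the interval of that difference held 0 (-0.02 to 0.17 on the log2 scale), so at this depth a difference in the balance of the mitofusins was not detectable.

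Opa1 (Entrez 74143), for inner membrane fusion, lay closer to 0 than the mitofusins. It had 11560 counts in wild-type iBAT and 10003 in Ucp1-KO iBAT, or 10420 and 11098 after scaling, with a log2 ratio of 0.09 (interval 0.04 to 0.15). Its raw counts were thus lower and its normalised counts higher in the Ucp1-KO library, and with total-count scaling its log2 ratio was -0.22. The counts of Mfn1 relative to Opa1 were 0.494 in wild-type iBAT and 0.635 in Ucp1-KO iBAT, a log2 difference of 0.36 (interval 0.27 to 0.45) that no scaling factor enters. The outer membrane fusion gene was thus shifted upward against the inner membrane one.

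Both genes for the proteases that cut OPA1 were higher in the Ucp1-KO library, but with total-count scaling neither differed beyond counting error. In that scaling Oma1 was at 0.055 (interval -0.20 to 0.31) and Yme1l1 at -0.074, with an interval that held 0. Oma1 (Entrez 67013), the stress-activated protease, was the least counted member with 519 counts in wild-type iBAT and 542 in Ucp1-KO iBAT, or 468 and 601 after scaling. Its log2 ratio of 0.36 had the widest interval of the members, 0.11 to 0.61. Yme1l1 (Entrez 27377), which cuts OPA1 constitutively at another site, had 6119 and 5844 counts, or 5515 and 6484 after scaling, and a log2 ratio of 0.23 (interval 0.16 to 0.31). Relative to its proteases Opa1 was lower: the log2 difference of the count ratio was -0.14 (interval -0.23 to -0.05) for Opa1 to Yme1l1 and -0.27 (interval -0.53 to -0.01) for Opa1 to Oma1.

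Dnm1l (Entrez 74006), the gene of the division GTPase, had near-equal normalised counts, though its call depended on the scaling. It had 6570 counts in wild-type iBAT and 5343 in Ucp1-KO iBAT, or 5922 and 5928 after scaling, and a log2 ratio of 0.0014 with an interval of -0.07 to 0.08. With total-count scaling its log2 ratio was -0.31 (interval -0.38 to -0.23), and with reference-gene scaling it was 0.09 (interval 0.01 to 0.16).

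The 4 genes for the proteins that recruit DRP1 split into a lower pair and a pair near 0. Fis1 (Entrez 66437), encoding a small protein anchored in the outer membrane, had 3692 counts in wild-type iBAT and 2021 in Ucp1-KO iBAT, or 3328 and 2242 after scaling. Its log2 ratio was -0.57 (interval -0.68 to -0.46). Mief2 (Entrez 237781), for MiD49, had 3225 and 1670 counts, or 2907 and 1853 after scaling, and a log2 ratio of -0.65 (interval -0.77 to -0.53). Of the genes examined, 18.4% had a lower ratio than Fis1 and 16.0% a lower ratio than Mief2. Mff (Entrez 75734), whose product is the main DRP1 receptor of many mammalian cells, had 5465 and 4118 counts, or 4926 and 4569 after scaling, with a log2 ratio of -0.11 (interval -0.19 to -0.03). Mief1 (Entrez 239555), for MiD51, had 2561 and 1928 counts, or 2308 and 2139 after scaling, with a log2 ratio of -0.11 and an interval of -0.23 to 0.01.

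The paralogues Mief1 and Mief2 therefore changed places in raw and in normalised counts, but not per length. Per kilobase of transcript, Mief2 had more normalised counts than Mief1 in both libraries (1119 and 387 in wild-type iBAT, 713 and 358 in Ucp1-KO iBAT). Mief1 had 0.794 counts per count of Mief2 in wild-type iBAT and 1.15 in Ucp1-KO iBAT, a log2 difference of 0.54 (interval 0.37 to 0.71). The summed counts of Fis1 and Mief2 were 0.862 of those of Mff and Mief1 in wild-type iBAT and 0.610 in Ucp1-KO iBAT, a log2 difference of -0.50 (interval -0.60 to -0.39). Fis1 and Mief2 were grouped here after their values were seen.

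**Figure D2:**
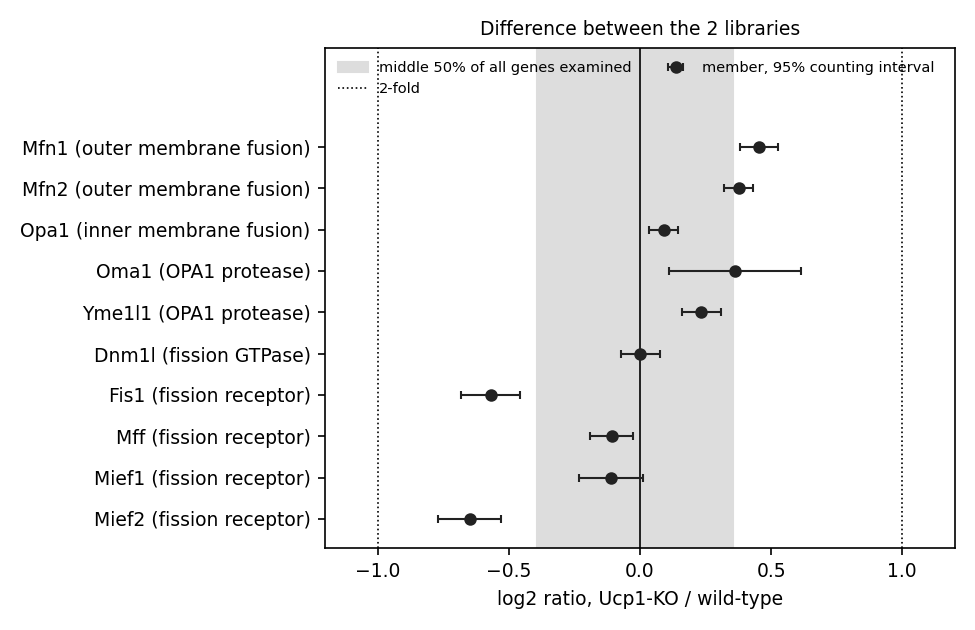
Log2 ratio of Ucp1-KO over wild-type for each member with its 95% counting interval, over the middle 50% of all genes examined (grey, -0.39 to 0.35) and the 2-fold lines (dotted). Mfn1, Mfn2 and Oma1 lie above the grey band and Fis1 and Mief2 below it, and all lie inside the 2-fold lines. With total-count scaling every point moves by -0.31, which puts Opa1, Yme1l1 and Dnm1l below 0.

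Scaling decides the sign or the call of the middle members. Scaling to equal library totals instead of size factors lowers the log2 ratio of every gene by 0.31. In that scaling Mfn1 and Mfn2 had intervals above 0, 6 members had intervals below 0, and Opa1 (-0.22) and Yme1l1 (-0.074) were lower instead of higher in the Ucp1-KO library. The intervals of Oma1 and Yme1l1 then held 0. The median log2 ratio in that scaling was -0.26 over the members and -0.31 over all genes. With scaling to the reference genes, 6 members had intervals above 0, Dnm1l among them, and 2 below (Fis1 and Mief2), since Mff was at -0.02 with an interval of -0.10 to 0.06. The order of the members along the log2 ratio is the same with any scaling factor. When mitochondrially encoded genes were left out of the totals, the shift of all genes was -0.01. The signs of Mfn1, Mfn2, Oma1, Fis1, Mff, Mief1 and Mief2 were the same under all scalings tried, including scaling to the 3 reference genes Tbp (log2 ratio -0.38), Hsp90ab1 (-0.10) and Gtf2b (0.21).

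**Figure D3:**
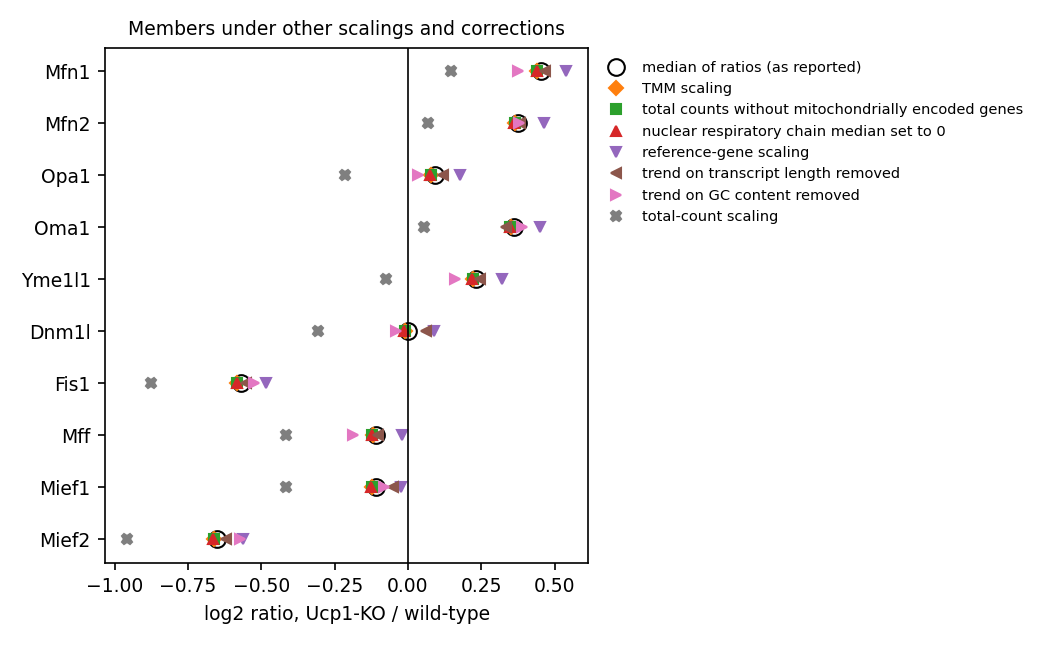
Log2 ratio of each member under the median-of-ratios scaling (open circles) and 7 other scalings or corrections (symbols). Total-count scaling (crosses) lies apart from the rest and moves Opa1 to -0.22, Yme1l1 to -0.074 and Dnm1l to -0.31, while Mfn1, Mfn2 and Oma1 are above 0 and Fis1 and Mief2 below 0 with every symbol.

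Ratios of one member's counts to another's within a library need no scaling, so the members were also set against each other in that way (a choice made after the counts were seen). Of the 45 pairs of members, 36 had a log2 difference between the libraries whose interval left out 0. Over all 36606846 pairs of genes with a mean normalised count of 500 or more, 74.4% did so, so the count among the members lay near the background. All 12 pairs of a fusion GTPase gene (Mfn1, Mfn2 or Opa1) with a DRP1 receptor gene (Fis1, Mff, Mief1 or Mief2) were shifted toward the fusion gene in the Ucp1-KO library, by 0.20 to 1.10 on the log2 scale. These 12 differences follow from 7 member log2 ratios, so they restate the order of the members without a scaling factor and add no separate evidence.

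The largest shift was that of Mfn1 to Mief2, from 1.77 to 3.80 counts per count, a log2 difference of 1.10 (interval 0.96 to 1.25). Mfn1 to Fis1 went from 1.55 to 3.14, a log2 difference of 1.02 (interval 0.89 to 1.16), and Mfn2 to Fis1 from 2.78 to 5.35, a log2 difference of 0.95. Mfn2 to Mief2 went from 3.18 to 6.48, a log2 difference of 1.03. A shift of at least 2-fold was reached by 4 of the 45 pairs, Mfn1 to Mief2, Mfn1 to Fis1, Mfn2 to Mief2 and Oma1 to Mief2, against 15.2% of the pairs of genes with a mean of 500 or more.

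Over the whole sets, Mfn1, Mfn2 and Opa1 together had 1.28 counts per count of Dnm1l and its 4 receptors in wild-type iBAT and 1.80 in Ucp1-KO iBAT, a log2 difference of 0.49 (interval 0.44 to 0.55). The 2 mitofusins had 1.07 counts per count of the 4 receptors in wild-type iBAT and 1.76 in Ucp1-KO iBAT, a log2 difference of 0.72 (interval 0.65 to 0.79). Longer transcripts give more counts, so these sums do not tell which set had more transcripts in either library. The 9 pairs whose interval held 0 included none of a fusion GTPase gene with a receptor gene. They were Mfn1 with Mfn2, both mitofusins with Oma1, Oma1 with Yme1l1, Opa1 with Dnm1l, Dnm1l with Mff and with Mief1, Mff with Mief1, and Fis1 with Mief2.

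**Figure D4:**
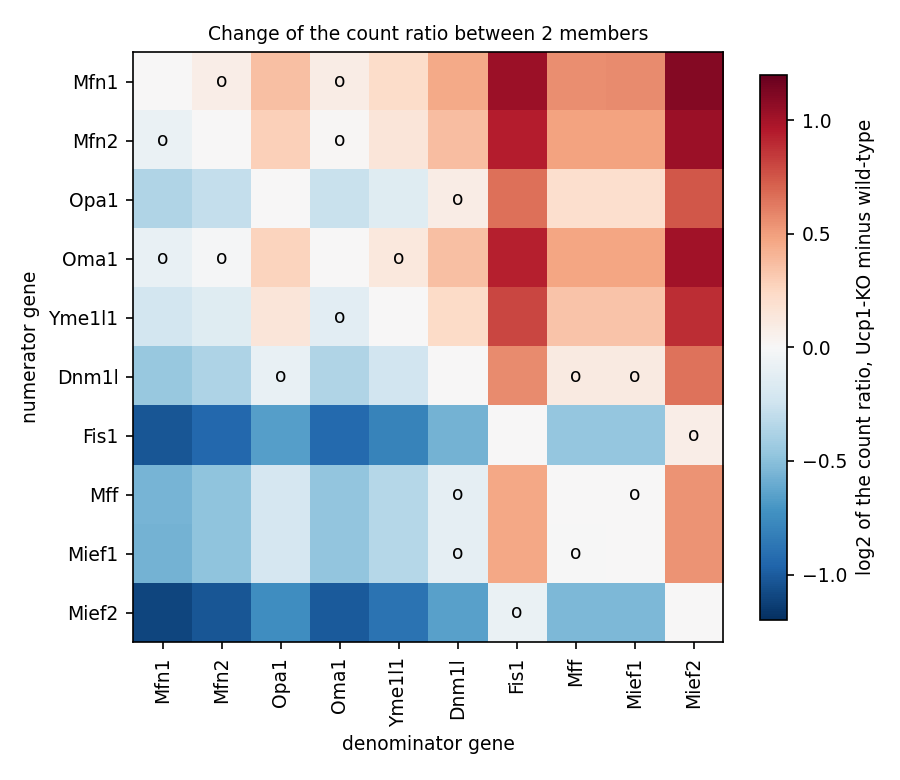
Log2 difference, Ucp1-KO minus wild-type, of the count ratio of the row gene to the column gene for the 45 pairs of members, each shown in both orders. Circles mark the 9 pairs whose 95% interval holds 0, and the deepest colours are those of Mfn1, Mfn2 and Oma1 against Fis1 and Mief2, up to 1.10 for Mfn1 to Mief2.

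The order of levels among the members can be read only per length. Per kilobase of the canonical transcript, the wild-type library had the most normalised counts for Fis1 (4234, interval 4043 to 4432), followed by Mfn2 (1975), Mff (1796) and Opa1 (1663), and the intervals of these 4 did not overlap. Mief2 (1119), Yme1l1 (1104) and Dnm1l (1087) came next with intervals that overlapped one another. Mfn1 (594), Mief1 (387) and Oma1 (229) were the lowest, with intervals that did not overlap. The canonical transcript of Fis1 was the shortest of the members at 786 bases and that of Mfn1 the longest at 8671.

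In the Ucp1-KO library Fis1 had 2853 and Mfn2 2563 normalised counts per kilobase, and their intervals (2679 to 3034 and 2496 to 2633) came close without overlap. Opa1 (1771) and Mff (1666) followed with overlapping intervals, then Yme1l1 (1297), Dnm1l (1088), Mfn1 (812), Mief2 (713), Mief1 (358) and Oma1 (294). Mief2 went from position 5 in the wild-type to position 8 in the Ucp1-KO library, below Mfn1. The order depends on the length used: with the length of all annotated exons Opa1 was first in both libraries, and Fis1 was at position 2 in wild-type iBAT and 5 in Ucp1-KO iBAT. As shares of the library, the members together took 0.105% of the counts in wild-type iBAT (55679 counts) and 0.0914% in the Ucp1-KO library (48637 counts).

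In bulk tissue, fewer cells of a type and less RNA per cell cannot be told apart, and other cell types moved between the pools. Besides the muscle markers, all 4 endothelial markers were lower in the Ucp1-KO library (0.147% to 0.0762% of counts), as were all 4 fibroblast or preadipocyte markers (0.0580% to 0.0420%) and 4 of 4 nerve and Schwann cell markers, 3 of them beyond counting error (0.0159% to 0.00753%). Of the 5 macrophage markers, 3 were higher beyond counting error and 0 were lower (0.00449% to 0.00472%), and with total-count scaling 2 were higher (Cd68 and Itgam) and 2 lower (Adgre1 and Csf1r) beyond counting error. The brown adipocyte markers had a median log2 ratio of 0.70. The part of these shifts in the differences of the members was not tested.

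The members lie on 8 chromosomes of the genome build GRCm39 (GENCODE mouse release 39). The fusion genes span chr3:32583599-32645888 on the plus strand (Mfn1), chr4:147955508-147989585 on the minus strand (Mfn2) and chr16:29398108-29473858 on the plus strand (Opa1). The protease genes span chr4:103170737-103229065 (Oma1) and chr2:23046034-23089281 (Yme1l1), both on the plus strand. Dnm1l spans chr16:16128677-16176904 on the minus strand. The receptor genes, all on the plus strand, span chr5:136982101-136995089 (Fis1), chr1:82702582-82730684 (Mff), chr15:80118149-80138322 (Mief1) and chr11:60618117-60623778 (Mief2).

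Several members share exon sequence with a gene on the opposite strand, and the strand setting of the counting is not given in the sources used here. Over all annotated exons Gnb4 overlaps 5448 bases of Mfn1, and 4740 bases between the canonical transcripts. Gnb4 was lower in the Ucp1-KO library (1771 and 898 counts, log2 ratio -0.68) where Mfn1 was higher. Flii overlaps 1217 exon bases of Mief2, and 245 between the canonical transcripts. It was higher (6761 and 6269 counts, log2 ratio 0.19) where Mief2 was lower. Yars2 overlaps 3594 exon bases of Dnm1l, 3391 between the canonical transcripts, and had a log2 ratio of 0.15 (interval -0.02 to 0.33). Fv1 overlaps 1245 exon bases of Mfn2, 0 between the canonical transcripts, and had a log2 ratio of -0.13 (interval -0.49 to 0.23). On the same strand, the protein-coding gene Gm55359 overlaps 213 bases of Mief1, which no strand setting separates. How many counts these genes share was not tested.

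The promoters of the members furthest from 0 in each direction are shown because these genes carry the contrast between mitofusins and receptors. Each window holds 300 bases, most of them upstream of a transcription start, and comes from RefSeq (build GRCm38.p6). All 10 members matched this table, with 15 windows. Capitals mark matches, on either strand, to letters searched in all windows of the table: CCGGAAG (core of ETS factor sites such as those of GABPA), GCGCATGC (core of NRF1 sites), TGACG (core of cyclic AMP response elements), AAGGTCA (extended site of estrogen-related receptors), CACGTG (E-box) and TGATGNAA (the element bound by ATF4 with C/EBP proteins). Overlapping matches of different motifs were each counted. The windows are those of Mfn1 (chr3:32529232-32529531, plus strand), Mfn2 (chr4:147904649-147904948, minus strand, the window with the most matches of its 3), Fis1 (chr5:136953025-136953324 and chr5:136961827-136962126, plus strand) and Mief2 (chr11:60728148-60728447, plus strand), printed 5′ to 3′ on the gene's strand.
Mfn1: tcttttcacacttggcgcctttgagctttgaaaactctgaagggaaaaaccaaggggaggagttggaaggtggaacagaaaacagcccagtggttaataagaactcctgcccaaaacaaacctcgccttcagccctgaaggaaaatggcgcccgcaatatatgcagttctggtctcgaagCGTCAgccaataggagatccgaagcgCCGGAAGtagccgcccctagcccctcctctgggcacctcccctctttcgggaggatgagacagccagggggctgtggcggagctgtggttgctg
Mfn2: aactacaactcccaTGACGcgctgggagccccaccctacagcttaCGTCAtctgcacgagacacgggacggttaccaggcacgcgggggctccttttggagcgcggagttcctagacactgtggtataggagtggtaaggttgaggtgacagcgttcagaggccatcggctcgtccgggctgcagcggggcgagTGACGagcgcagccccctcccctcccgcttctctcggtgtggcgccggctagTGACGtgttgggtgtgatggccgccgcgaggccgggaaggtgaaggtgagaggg
Fis1, first window: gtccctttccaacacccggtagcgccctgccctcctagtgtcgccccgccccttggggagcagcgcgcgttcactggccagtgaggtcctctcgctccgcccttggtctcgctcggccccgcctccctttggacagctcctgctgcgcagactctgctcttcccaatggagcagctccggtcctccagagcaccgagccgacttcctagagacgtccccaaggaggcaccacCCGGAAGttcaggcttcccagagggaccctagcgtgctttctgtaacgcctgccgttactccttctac
Fis1, second window: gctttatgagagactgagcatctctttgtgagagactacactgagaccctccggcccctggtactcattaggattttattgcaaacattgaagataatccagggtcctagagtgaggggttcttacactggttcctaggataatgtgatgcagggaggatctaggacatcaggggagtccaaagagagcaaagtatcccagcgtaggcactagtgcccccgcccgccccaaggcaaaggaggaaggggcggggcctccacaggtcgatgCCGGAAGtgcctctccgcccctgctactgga
Mief2: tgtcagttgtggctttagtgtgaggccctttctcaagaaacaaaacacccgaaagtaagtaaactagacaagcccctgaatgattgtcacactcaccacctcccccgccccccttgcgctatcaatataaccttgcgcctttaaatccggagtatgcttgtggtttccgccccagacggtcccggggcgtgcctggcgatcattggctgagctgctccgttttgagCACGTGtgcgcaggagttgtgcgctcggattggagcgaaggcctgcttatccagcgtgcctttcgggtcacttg

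The ETS core CCGGAAG was found in windows of 5 members (Mfn1, Yme1l1, Dnm1l, Fis1 and Mief1), against 9.93% of the 27025 genes in the table, and it stands in both a higher gene (Mfn1) and a lower one (Fis1). TGACG was found in 6 members (Mfn1, Mfn2, Oma1, Yme1l1, Mff and Mief1), against 23.0% of genes, and 4 matches stand in the Mfn2 window shown. The NRF1 core was found in Opa1 alone (3.05% of genes) and the E-box in Mief2 alone (8.09%). AAGGTCA and TGATGNAA were found in 0 members, against 5.38% and 4.51% of genes. The shares are over all genes of the table, expressed or not, and were not matched to the members in expression or GC content. These are matches of letters, and Fis1 and Mief2, the lower pair, shared none of the motifs searched.

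Related genes of mitochondrial dynamics and membrane structure were described from 8 lists, 60 genes in all, of which 59 were examined. Of these, 37 (62.7%) had an interval above 0 and 8 (13.6%) an interval below 0, with a median log2 ratio of 0.17. The shares were 31.5% and 30.5% of all genes examined, and 40.3% and 33.2% of those whose mean normalised count reached 500. With total-count scaling 15 of the listed genes had an interval above 0 and 34 below. Their median log2 ratio was -0.14 in that scaling, above the median of -0.31 over all genes. Shares of all genes with such intervals are not given for that scaling. The medians of all lists but that of outer membrane content were then below 0. The gene not examined was Gdap1, with 8 counts in wild-type iBAT and 0 in Ucp1-KO iBAT.

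Among 11 fission cofactors, 6 had an interval above 0 and 2 below, with a median log2 ratio of 0.16. Mtfr2, of a family that promotes mitochondrial division, had 37 counts in wild-type iBAT and 101 in Ucp1-KO iBAT, a log2 ratio of 1.73. Akap1, which anchors protein kinase A at the outer membrane where the kinase phosphorylates DRP1, had 11018 and 16946 counts, a log2 ratio of 0.92. Inf2 (-0.52) and Spire1 (-0.21), which assemble actin at division sites, were lower, and Pgam5 (0.37), a mitochondrial phosphatase, was higher. The list was not split by whether a product promotes or restrains division. Most of its genes lay on the other side of 0 from Fis1 and Mief2. With total-count scaling, however, 7 of the 11 had an interval below 0. Their median log2 ratio was then -0.15, beside -0.31 over all genes.

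Among 10 fusion cofactors and quality control genes, 6 had an interval above 0 and 1 below, with a median log2 ratio of 0.20. Pld6, encoding the mitochondrial phospholipase MitoPLD that promotes mitofusin-dependent fusion, had 166 and 490 counts, a log2 ratio of 1.86. Its counts were far below those of the mitofusins. Pink1, a kinase of damaged mitochondria, had a log2 ratio of 0.51, and the outer membrane ubiquitin ligases Marchf5 and Mul1 had 0.36 and 0.25. Miga1, a fusion-promoting partner of MitoPLD, was the lower one at -0.34.

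Of 6 other inner membrane protease genes, 5 had an interval above 0 and 0 below, as Oma1 and Yme1l1 did, with a median log2 ratio of 0.19. With total-count scaling 0 of them had an interval above 0 and 4 below, with a median of -0.11 beside -0.31 over all genes. Parl, the rhomboid protease that cuts PINK1, had 0.29, the m-AAA protease subunits Afg3l1 and Afg3l2 both had 0.22, and Immp2l had 0.17. Dele1, the OMA1 substrate that relays mitochondrial stress, had a log2 ratio of -0.23 (2991 and 2070 counts), and Eif2ak1, the kinase it activates, had -0.09 with an interval that held 0.

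Of 11 genes of MICOS (the complex at cristae junctions) and the outer membrane sorting machinery, 8 had an interval above 0 and 1 below, with a median log2 ratio of 0.16. Chchd6 (0.60), Mtx2 (0.52), Dnajc11 (0.24) and Apoo (0.19) were the furthest from 0, and Chchd3 (-0.17, named after its value was seen) was the lower one. Of 8 genes of the synthesis and remodelling of cardiolipin, the inner membrane lipid that OPA1 binds, 4 had an interval above 0 and 1 below, with a median log2 ratio of 0.18. They included Tamm41 (0.73), Crls1 (0.48) and Lclat1 (0.62), and the lower one was Prelid1 (-0.36), a phosphatidic acid carrier.

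Of 4 mitochondrial transport genes, the adaptor Trak2 (0.56) and the Miro GTPases Rhot2 (0.42) and Rhot1 (0.19) were higher and Trak1 (-0.16) was lower, with a median log2 ratio of 0.30. Of 7 genes for channels and import receptors of the outer membrane, 5 had an interval above 0 and 1 below, with a median log2 ratio of 0.34. They included Tomm70a (0.74), Tomm40 (0.46), Vdac2 (0.36) and Vdac3 (0.34), and the lower one was Vdac1 (-0.20, named after its value was seen). The mitofusin log2 ratios of 0.45 and 0.38 lay within the range of these outer membrane genes, whereas Fis1 and Mief2 lay below it.

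**Figure D5:**
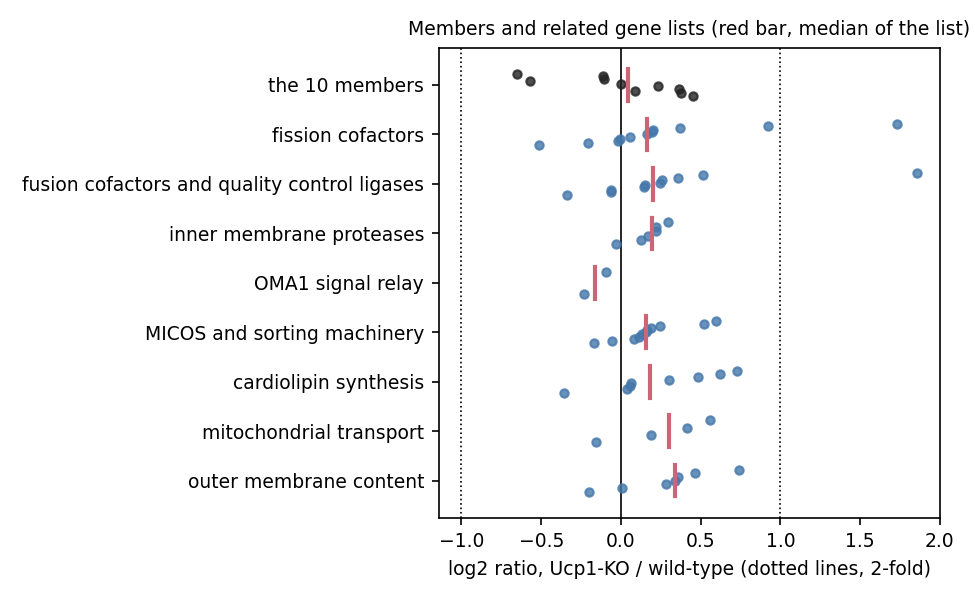
Log2 ratio of Ucp1-KO over wild-type for the 10 members (black points) and for the examined genes of 8 related lists (blue points), with each list's median as a red bar and the 2-fold differences as dotted lines. The medians lie between -0.16 and 0.34, Pld6 and Mtfr2 are the points past 2-fold, and no related gene lies as low as Fis1 or Mief2. The nearest is Inf2 (-0.52), whose counting interval overlaps those of Fis1 and Mief2. With total-count scaling every point moves by -0.31 and the medians of all lists but outer membrane content fall below 0, as does that of all genes (-0.31).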

How the data were processed

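The authors deposited featureCounts tables of whole-number counts per gene, not normalised, with 1 table per library. Per the labels, trimming used Trim Galore and alignment HISAT2 with build mm39. The annotation, strand setting and handling of reads matching several places are not given in the sources used here. Members, lists and comparisons were chosen with earlier results of these data known.

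Size factors were medians of ratios (DESeq2 1.42.0, R 4.3.3), 1.11 for wild-type and 0.901 for Ucp1-KO, although the totals were near equal (52950913 and 53216727 counts). Of genes with 1 to 10 counts, 70.7% and 73.4% had even counts, so intervals were computed on read pairs (counts divided by 2). Of genes with 100 to 1000 counts, 49.9% and 50.2% had even counts, so even counts do not show pairing at that depth. Intervals were at the 95% level and exact for the members (Poisson for levels, conditional binomial by Clopper-Pearson for log2 ratios, conditional odds ratio for pairs of members, with the normal approximation of its logarithm for pairs of all genes) and hold only counting error: without molecular identifiers, reads can be copies of 1 molecule, and the 3 pooled animals are not resolved. Depth set their width, which was greatest for Oma1. Genes with a mean normalised count below 10 were not examined.

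Named genes were all members, Ucp1, 3 reference genes and, of each list, every gene at least 2-fold different and up to 4 others furthest from 0, and 1 listed gene is not reported here. Symbols were matched to GENCODE mouse release 39 for 96.7% of genes examined. Levels were divided by the canonical transcript's length, with all annotated exons as an alternative. The alternatives were TMM (edgeR 4.0.16), total-count, reference-gene and other scalings, other minimum counts, pseudocounts and interval bases, and, added after the data were seen, removal of trends on transcript length or GC content. The ratio script was tested on simulated data.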

Additional observations from a re-analysis of the deposited data

How the results depend on the processing

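No paired analysis was possible because there was 1 library of either genotype, and for the same reason no library could be left out. The intervals hold counting error, and the spread between animals was not measured. Of 90 single-member values under alternatives, 72 moved by less than the counting interval, 16 by more, and 2 reversed, both with total-count scaling: Opa1 (-0.22) and Yme1l1 (-0.074). Dnm1l, whose interval held 0 as reported, was not counted as reversed, although its sign also changed, to -0.31 with total-count scaling. Among other settings, Dnm1l was also negative with TMM (-0.01), with totals without mitochondrially encoded genes (-0.01) and with the GC trend removed (-0.04). That scaling also gave a median log2 ratio of -0.26 over the members, beside -0.31 over all genes. In it 2 members were higher and 6 lower beyond counting error, and shares of all genes for these calls are not given. At 2-fold, 732 genes were higher and 2320 lower, against 1128 and 1453 as reported. Reference-gene scaling gave a member median of 0.13, beside 0.09 over all genes, with 6 members higher and 2 lower. With no minimum count 2187 genes were at least 2-fold higher and 2844 lower, and with a minimum mean of 50 there were 617 and 811, because more or fewer genes were examined. The 1.5-fold rule took in 1 member (Mief2) against 0 at 2-fold. Intervals on the counts as deposited put 4 members below 0, against 3 as reported. So did totals without mitochondrially encoded genes and setting the nuclear respiratory chain median to 0, both of which moved all ratios by -0.01. Removing the trend on GC content, an alternative chosen after the data were seen, left Fis1 at -0.52, Mief2 at -0.57, Mfn1 at 0.38, Mfn2 at 0.38, Oma1 at 0.39 and Opa1 at 0.03, and removing that on transcript length left Fis1 at -0.55 and Mief2 at -0.62.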
